A study of Mus musculus with 10 samples.

Results

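The 10 genes of the mouse Hoxb cluster (Hoxb13, Hoxb9, Hoxb8, Hoxb7, Hoxb6, Hoxb5, Hoxb4, Hoxb3, Hoxb2 and Hoxb1, in their order along the chromosome) were examined for the repressive histone mark H3K27me3 in LT-HSCs, the long-term stem cells of blood. All 10 were found among the 21938 protein-coding genes annotated on the main chromosomes, and they were chosen by their place in the cluster, not by their signal. The cells were sorted as LSKCD48-CD150+ from the fetal liver of E14.5 embryos, and gave 3 libraries of embryos wild type (WT) for IκBα and 3 of embryos with IκBα knocked out (KO). IκBα, encoded by Nfkbia, retains NF-κB in the cytoplasm, and the study asked whether its loss alters Polycomb-marked chromatin in these cells. The KO is a targeted, germline Nfkbia allele obtained by mating heterozygous mice, so the deletion is not restricted to blood cells. The study also bred a Gfi1:tomato reporter line, and the labels do not say which embryos carried it. All 6 libraries were made by CUT&Tag, in which an antibody (here C36B11, against trimethylated lysine 27 of histone H3) directs a transposase to the marked chromatin. They were prepared from small numbers of lightly fixed sorted cells, and peaks were called without a control library. For this assay a figure legend of the study gives fewer independent experiments than libraries per genotype. Its reporting summary calls the 3 replicates independent, and the labels do not say which libraries shared an experiment. In a sorted population, a mark in fewer cells and a weaker mark in each cell cannot be told apart.

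A peak is a stretch that the authors called in 1 library as among its strongest 0.5% of enriched blocks. Peak number ranged from 1047 in WT replicate 3 to 6013 in WT replicate 2, and replicate 3 of each genotype (50 bp reads) had fewer peaks than replicates 1 and 2 (75 bp reads). WT replicate 3 stood apart: its peaks covered 0.0696% of the genome, against 0.279% to 1.02% in the other 5 libraries, and the comparisons of genotypes below are given with and without it. The peak files hold no read totals. The study lists them per library, with lower totals for both replicate 3 libraries than for the others, and they were not used here. A typical peak was low, with library medians of 6 to 10 fragments at its highest point. Nfkbia had 0 peaks at its promoter or body in any library, so the mark gives no check of the genotype labels. A promoter peak in at least 1 library, which 15.8% of all protein-coding genes had, was found at 0 of 15 genes of blood stem and progenitor cells, 0 of 5 erythroid genes, 0 of 4 macrophage genes, 3 of 9 hepatocyte genes (Foxa1, Foxa2 and Prox1) and 2 of 7 endothelial genes (Kdr and Sox17). Lists this short say little against that share.

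H3K27me3 is laid down by Polycomb repressive complex 2, is typically spread over CpG-rich promoters of developmental regulators, and can form domains over whole Hox clusters where these are silent. Hox genes encode homeodomain transcription factors that set position along the body axis. Within a cluster, genes at the 3′ end (Hoxb1 side) are used early and anteriorly and genes at the 5′ end (Hoxb13 side) late and posteriorly, so that the edge of the H3K27me3 domain commonly separates used from unused genes. In blood, Hoxb4 is known for expanding stem cells when overexpressed, and Hoxb5 reporter expression marks long-term repopulating cells in adult bone marrow.

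The promoters of Hoxb8, Hoxb4 and Hoxb1 are shown because they are the 3 members for which the RefSeq table used here (GRCm38.p6) holds a window, and because they stand for the partly marked, the unmarked and the isolated marked part of the cluster. Each sequence is the 250 bases before the RefSeq transcription start, 5′ to 3′, with every CpG in capitals.
Hoxb8 promoter, chr11:96281655-96281904, plus strand: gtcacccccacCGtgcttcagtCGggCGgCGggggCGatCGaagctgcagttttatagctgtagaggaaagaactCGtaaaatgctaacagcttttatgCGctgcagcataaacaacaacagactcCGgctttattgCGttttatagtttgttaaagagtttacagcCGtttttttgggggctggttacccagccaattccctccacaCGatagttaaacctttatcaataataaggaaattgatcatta
Hoxb4 promoter, chr11:96318017-96318266, plus strand: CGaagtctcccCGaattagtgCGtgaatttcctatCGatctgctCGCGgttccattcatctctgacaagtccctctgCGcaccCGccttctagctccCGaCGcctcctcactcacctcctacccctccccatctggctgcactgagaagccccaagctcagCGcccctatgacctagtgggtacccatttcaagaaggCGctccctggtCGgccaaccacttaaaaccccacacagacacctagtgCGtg
Hoxb1 promoter, chr11:96365508-96365757, plus strand: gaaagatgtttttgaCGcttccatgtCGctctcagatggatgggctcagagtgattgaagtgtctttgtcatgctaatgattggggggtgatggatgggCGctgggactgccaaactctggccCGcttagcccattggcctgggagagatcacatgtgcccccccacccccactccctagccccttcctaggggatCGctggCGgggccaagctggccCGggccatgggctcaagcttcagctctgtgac
The Hoxb8 window held 12 CpG and was covered in 1 of 6 libraries (WT replicate 2). The Hoxb4 window held 14 CpG and was touched in 0 of 6 libraries. The Hoxb1 window held 7 CpG and was touched in 5 of 6 libraries, in 4 of them over all its bases. The median over the 32851 windows of the table was 6 CpG, so the window with no peak had the most CpG of the 3.

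The cluster also holds 2 microRNA genes, 1 on each side of the boundary of the mark, whose mature 5p sequences are shown with the seed (bases 2 to 8) in capitals.
mmu-miR-196a-5p, from Mir196a-1, chr11:96265187-96265208: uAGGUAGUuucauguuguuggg
mmu-miR-10a-5p, from Mir10a, chr11:96317186-96317208: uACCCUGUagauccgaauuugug
The seeds differ. Mir196a-1, whose product targets Hoxb8 mRNA, lies between Hoxb13 and Hoxb9, and its mature sequence was under a peak in WT replicate 2 and KO replicate 1. Mir10a lies between Hoxb5 and Hoxb4 and was under a peak in 0 of 6 libraries, with the nearest mark 14.4 to 18.1 kb away.

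The mark divided the cluster into 3 parts (map of peaks by library). From Hoxb13 to Hoxb6 it lay in patches, the stretch from Hoxb5 to the start of the Hoxb1 neighbourhood held no peak in any library, and Hoxb1 carried a peak of its own in 5 of 6 libraries. The cluster runs from the start of Hoxb13 to the end of Hoxb1 (chromosome 11, 96194316 to 96368256, GRCm38, 173.9 kb), with all 10 genes on the plus strand. Peaks covered 19.0%, 34.0% and 3.23% of it in the WT libraries, in the order of replicates 1 to 3, and 27.1%, 19.6% and 15.3% in the KO libraries. These shares were 23.3 to 54.9 times the share of the whole genome under peaks in the same library. Over the cluster, 99.7 kb (57.3%) was under a peak in no library, 20.96 kb in at least 4 libraries and 1.53 kb in all 6.

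**Figure D1:**
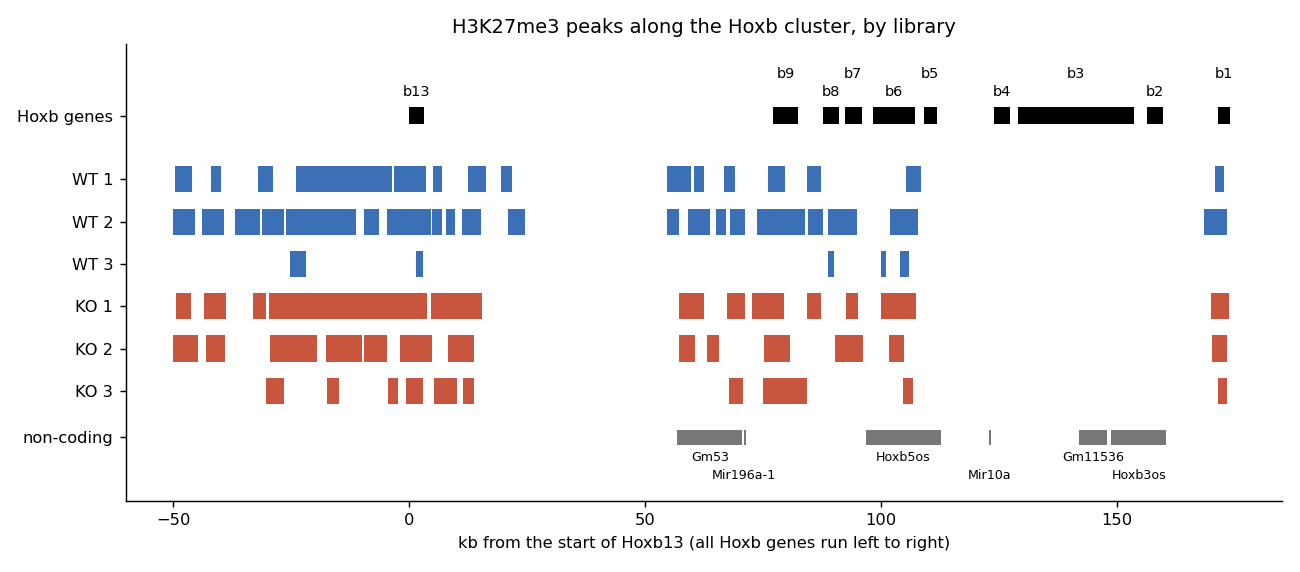
Peaks of each library (bars; blue WT, red KO) against distance in kb from the start of Hoxb13, with the 10 Hoxb genes above and non-coding genes below. The stretch between Hoxb6 and Hoxb1 is empty in all 6 libraries over 59.9 kb, and WT 3 has few, short bars.

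Counted by gene, 7 of the 10 members had a promoter peak in at least 1 library, where promoters span 5 kb before to 100 bp after each annotated start of transcription (TSS). Among all protein-coding genes the share was 15.8%. In WT replicates 1, 2 and 3, 5, 7 and 3 members had one, where 10.6%, 12.9% and 3.46% of protein-coding genes did. In KO replicates 1, 2 and 3, 7, 6 and 6 members had one, against 12.9%, 12.2% and 8.06%. In every library the members' share was thus above that of all genes. In all 6 libraries, 1 member (Hoxb5) and 2.65% of genes had a promoter peak. The windows of neighbours overlap, so that these calls are not independent: 61.3% of the promoter window of Hoxb5 lies in the body of Hoxb6, 47.4% of that of Hoxb7 in the body of Hoxb8 and 26.3% of that of Hoxb6 in the body of Hoxb7.

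Hoxb13 (ENSMUSG00000049604.3, 96194316 to 96197447) and Hoxb9 (ENSMUSG00000020875.9, 96271457 to 96276595), the members used most posteriorly in the embryo, had the highest mean covered shares over the 6 libraries (75.1% and 52.4%), though not the highest in each library. Of the Hoxb13 promoter and body, 95.2%, 97.3% and 18.8% was under peaks in the WT libraries and 100%, 67.5% and 72.0% in those of KO, and the gene body had a peak in all 6 libraries. The TSS was covered in 5 libraries and lay 1.34 kb outside the nearest peak of WT replicate 3. The peak over the gene body had a height of 11, 13 and 5 fragments for WT replicates 1 to 3, against 14 for KO replicate 2 and 7 for KO replicate 3. In KO replicate 1 that peak had its highest point far upstream of the gene, so its height is not a value of Hoxb13. The stretch shared by all 6 libraries (96195651 to 96197175) was inside Hoxb13.

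Hoxb9, which takes part in patterning the thorax, was covered over 35.3%, 85.5% and 0% in WT and 65.5%, 54.9% and 73.3% in KO. Both of its TSSs were under a peak in the same 5 libraries. The peak there was 9.33 kb wide in KO replicate 3, where it was the strongest of the cluster by total signal. WT replicate 3 had no peak within 11.475 kb of a Hoxb9 TSS.

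The next 3 genes, Hoxb8, Hoxb7 and Hoxb6, were covered in a patchy way that differed between libraries of the same genotype. Hoxb8 (ENSMUSG00000056648.5, 96281905 to 96285315), whose forced expression holds myeloid progenitors immature, was covered over 36.3%, 81.0% and 15.2% in WT and 36.2%, 8.92% and 18.9% in KO. Any of its TSSs was under a peak in WT replicate 2 alone. Hoxb7 (ENSMUSG00000038721.8, 96286623 to 96290162) ranged from 0% (WT replicate 1 and KO replicate 3) to 77.2% (WT replicate 2). The WT and KO values of both genes overlapped.

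Hoxb6 (ENSMUSG00000000690.5, 96292476 to 96301569), a gene of the lateral mesoderm, had a peak in its body in all 6 libraries. Its promoter and body were covered over 14.6%, 50.8% and 19.97% in WT and 66.1%, 43.7% and 15.3% in KO. Peaks in its body reached at most 7, 8 and 8 fragments for WT replicates 1 to 3, against 11, 7 and 7 for KO. The mark lay mostly over the middle and the 3′ part of the gene, and the first annotated TSS of Hoxb6 was covered in 0 libraries, whereas a later TSS was covered in 4.

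Hoxb5 (ENSMUSG00000038700.4, 96303336 to 96306121) was the member with a promoter call in all 6 libraries, and also the first in the row with no peak in its body. All of its promoter calls came from peaks that end inside or just past Hoxb6. The distance from the nearest Hoxb5 TSS to the mark was 0.511, 1.15 and 3.06 kb in WT and 1.68, 4.22 and 2.24 kb in KO. With a promoter of 1 kb on each side of a TSS, Hoxb5 was called in 1 library (WT replicate 1).

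Hoxb4 (ENSMUSG00000038692.8, 96318267 to 96321638), Hoxb3 (ENSMUSG00000048763.11, 96323326 to 96347930) and Hoxb2 (ENSMUSG00000075588.6, 96350525 to 96354012) had no peak at promoter or body in any of the 6 libraries. Loss of Hoxb3 together with Hoxb4 is known to slow stem cell proliferation, and Hoxb2 acts in the hindbrain. The nearest mark lay 15.4 to 19.1 kb from the Hoxb4 TSS, 19.0 to 23.05 kb from a Hoxb3 TSS and 11.1 to 13.99 kb from a Hoxb2 TSS, apart from WT replicate 3, where it was 50.2 kb from Hoxb2. A stretch without a peak may still carry the mark below the level called, and for these genes no level can be given. The deposited lists were also filtered against a blacklist of regions, and whether it touches the cluster was not tested.

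Hoxb1 (ENSMUSG00000018973.2, 96365752 to 96368256), which sets the identity of a hindbrain segment and lies at the 3′ end, was marked again. Its promoter and body were covered over 25.7%, 65.4% and 0% in WT and 49.9%, 42.5% and 27.05% in KO, with both TSSs under a peak in the same 5 libraries. Coverage there reached 10 or 11 fragments in each of these 5 libraries. Total signal of this peak came to 9384 and 21962 in the 2 WT libraries with a peak, and to 19287, 12705 and 8017 in the KO libraries, values that overlap between genotypes and are not scaled to depth. WT replicate 3 had no peak there, and its nearest mark was 65.5 kb away. Its total signal was above that of the region at Hoxb6 in WT replicate 2 and KO replicate 2 (17863 and 10604 at Hoxb6), and below it in the other 3 libraries with a peak (10049, 27734 and 8715). When every library was reduced to its 1047 strongest peaks, Hoxb1 was called in 0 libraries and Hoxb13 still in 5.

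**Figure D2:**
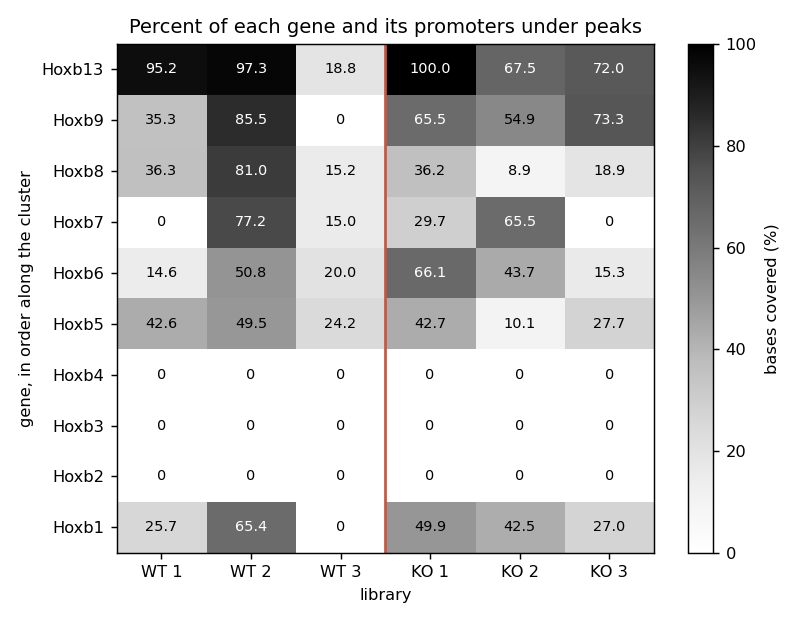
Percent of the bases of each Hoxb gene and its promoter windows that lie under peaks, for 10 genes (rows, in order along the cluster) and 6 libraries (columns; the line separates WT from KO). Hoxb4, Hoxb3 and Hoxb2 are at 0 in all libraries, and Hoxb13 has the highest mean, with values from 18.8% in WT 3, where Hoxb5 and Hoxb6 are above it, to 100% in KO 1.

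Non-coding genes inside the cluster followed the part they lie in. The lincRNA Gm53 (96251105 to 96264868), next to Mir196a-1, had a peak in its body in 5 libraries and at its promoter in 4. Mir196a-1 had a promoter peak in 4 libraries, 2 of each genotype. Hoxb5os, antisense to Hoxb6 and Hoxb5 (96291024 to 96306910), had a peak in its body in all 6 libraries and at its promoter in 0. Mir10a, Gm11536 (antisense to Hoxb3) and Hoxb3os (antisense to Hoxb3 and Hoxb2) had none in promoter or body. Gm27898 and Gm27605, small RNA genes within 4 kb of Hoxb13, had promoter peaks in 5 libraries each, and the pseudogene Gm11539 had a peak over its body in WT replicates 1 and 2. To the left of the body of Gm11539 and reaching into it, 30.1 kb held no peak in any library (96218825 to 96248944).

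The boundary of the mark on the Hoxb6 side was placed as the last base under a peak before the longest stretch without one. It lay at 108.5, 107.9, 107.3, 104.8 and 106.8 kb from the start of Hoxb13 in WT replicates 1 and 2 and KO replicates 1, 2 and 3. In WT replicate 3 the longest stretch without a peak was a different one, from 2.86 to 88.7 kb, between Hoxb13 and Hoxb8. The mean left end was therefore 73.1 ± 60.8 kb in WT and 106.3 ± 1.33 kb in KO (SD, n = 3 each; exact two-sided permutation test, p = 1), a contrast set by 1 library, without which the difference was -1.88 kb (exact permutation test, p = 0.2). Measured from Hoxb9 to Hoxb1, which leaves out the gap next to Hoxb13, the boundary of WT replicate 3 lay at 106.0 kb. The means were then 107.4 ± 1.33 kb in WT and 106.3 ± 1.33 kb in KO (SD, n = 3 each; exact two-sided permutation test, p = 0.4). With all peaks, all 6 boundaries fell within Hoxb6 or between Hoxb6 and Hoxb5, and their spread between libraries was as large as the difference between genotypes. Their place depends on the full peak lists: with the 1047 strongest peaks of each library, the left end of the longest stretch without a peak, measured over the whole cluster, lay between 2.86 and 94.9 kb (33.8 ± 53.0 kb in WT and 34.8 ± 43.1 kb in KO; SD, n = 3 each).

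On the Hoxb1 side the mark began at 170.6 and 168.4 kb in WT replicates 1 and 2 and at 169.9, 170.1 and 171.3 kb in KO, which is within 3 kb upstream of the start of Hoxb1 in each. With the stretch of WT replicate 3 included, the right end was at 142.6 ± 46.7 kb in WT and 170.4 ± 0.762 kb in KO (SD, n = 3 each; exact two-sided permutation test, p = 0.3). Without WT replicate 3 the WT mean was 169.5 ± 1.55 kb and the difference 0.887 kb (exact permutation test, p = 0.5). The unmarked stretch was 62.1 and 60.6 kb long in WT replicates 1 and 2 and 62.6, 65.3 and 64.5 kb in KO. It was shorter in both of these WT libraries than in each KO library, whereas in WT replicate 3, measured from Hoxb9, it was 68.0 kb long and ran to the end of the cluster. Its length was not among the planned comparisons and is given without a test.

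**Figure D3:**
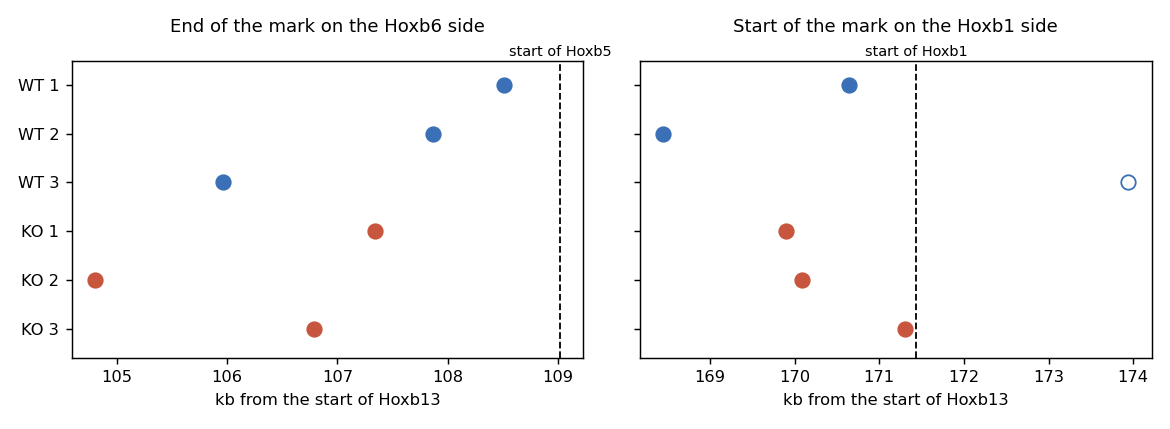
Ends of the unmarked stretch within Hoxb9 to Hoxb1, by library, in kb from the start of Hoxb13; dashed lines are the starts of Hoxb5 (left) and Hoxb1 (right). The left ends lie between 104.8 and 108.5 kb and overlap between WT (blue) and KO (red); the open circle marks WT 3, which has no peak up to the end of the cluster.

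Cluster-wide measures of the mark were compared between genotypes to see whether they moved with the loss of IκBα. The covered share was 18.7 ± 15.4% in WT and 20.7 ± 5.98% in KO (SD, n = 3 each; exact two-sided permutation test, p = 0.9). Without WT replicate 3 the direction turned, to 26.5 ± 10.6% in WT against 20.7% in KO (exact permutation test, p = 0.6). The number of members with a promoter peak was 5 ± 2 in WT and 6.33 ± 0.577 in KO (SD, n = 3 each; exact two-sided permutation test, p = 0.5). Without WT replicate 3 it was 6 in WT and 6.33 in KO, and in the 75 bp libraries alone 6 in WT and 6.5 in KO. With 3 libraries against 3, no p-value could fall below 0.1. None of these differences exceeded the spread between replicates.

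Gene by gene, 4 of the 7 members with a promoter peak (Hoxb13, Hoxb9, Hoxb6 and Hoxb1) had it in unequal numbers of WT and KO libraries, each of them in more KO libraries. Among the 3469 protein-coding genes with a promoter peak, 61.9% had unequal numbers and 47.4% had more in KO, so such a lean was common and nothing is read from it for the members. The missing WT call was that of WT replicate 3 for Hoxb13, Hoxb9 and Hoxb1 and that of WT replicate 1 for Hoxb6. The covered share was higher in every KO than in every WT library for 0 members, against 1.59% of the genes with any covered base, and lower in every KO library for 0 members, against 0.078%. With all 6 libraries the difference between the means was largest at Hoxb9 (40.3 ± 42.9% in WT and 64.6 ± 9.24% in KO, 24.3 points), where WT replicate 2 lay above all KO libraries. It rests on the 0% of WT replicate 3, and without that library it was 4.18 points. At Hoxb8 the mean was lower in KO (44.2 ± 33.6% and 21.3 ± 13.8%), with WT replicate 3 below KO replicates 1 and 3. Without WT replicate 3 the Hoxb8 difference was -37.4 points and the largest of the members, although WT replicate 1 (36.3%) and KO replicate 1 (36.2%) were nearly equal. Leaving out WT replicate 3 also turned the difference from 9.44 to -16.4 points at Hoxb13, from 9.46 to -5.71 at Hoxb1 and from 0.995 to -6.89 at Hoxb7. These differences by gene are given without a test.

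Signal was compared after removal of depth to first order. Mean coverage of the peaks in the cluster, divided by that of all peaks of the library, came to 0.942, 1.04 and 1.06 for the WT libraries, whereas KO libraries had 1.07, 1.03 and 0.822. The difference between genotypes was -0.067 on the log2 scale (exact two-sided permutation test, n = 3 each, p = 0.7), and -0.034 without WT replicate 3 (exact permutation test, p = 0.9). Per base, peaks of the Hoxb cluster thus had 0.822 to 1.07 times the mean coverage of all peaks of the library. Peaks that reach past the cluster were counted whole, and 1 of them gave 164281 of the 344241 in KO replicate 1. By total signal, the strongest peak of the cluster ranked 393 of 4160, 258 of 6013 and 454 of 1047 peaks for WT replicates 1 to 3, and 4 of 4904, 485 of 5157 and 104 of 2325 for those of KO. The rank of 4 belongs to a single peak of 33.4 kb over Hoxb13 and its upstream side, with a total of 164281.

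Merged over the libraries, peaks of the cluster formed 8 regions, of which 2 were called in all 6 libraries. The first, named after Hoxb13 below, began at 96157397, far upstream of the gene, so its values are not those of Hoxb13 alone. Of its total signal, the peak over the gene body gave 31616 of 148928 in WT replicate 1. In WT replicate 3 that peak gave 4405 of 13442, and in KO replicate 2 it gave 32753 of 160032. The region at Hoxb13 (96157397 to 96210649) had 5.59, 6.07 and 2.88 times the median total signal of the 718 regions called in all libraries in WT, and 5.80, 5.39 and 3.78 times in KO. The region at the 3′ part of Hoxb6 (96294199 to 96302825) had 0.377, 0.521 and 1.68 times the median in WT and 0.758, 0.357 and 0.543 times in KO, so WT replicate 3 alone lay above the median. Log2 signal in KO relative to WT was 0.092 (SE 0.38) at Hoxb13 and -0.39 (SE 0.54) at Hoxb6 (limma, Benjamini-Hochberg adjusted p = 0.993 for both). By this test 0 of the 718 regions (0%) passed an adjusted p of 0.05, and 8 had an unadjusted p under 0.05. Without WT replicate 3 the values were -0.25 at Hoxb13 and 0.25 at Hoxb6.

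Hoxb was then set against the other 3 Hox clusters, measured the same way in the same libraries. The covered share of Hoxa was 10.7% to 29.5% over the 6 libraries, and Hoxb minus Hoxa averaged -1.01 ± 8.21 percentage points, below 0 in 4 of 6 libraries (exact two-sided sign-flip permutation test, p = 0.844, adjusted over 3 clusters p = 0.844). Hoxc was covered over 66.9% to 83.5% in the 75 bp libraries, 1.26% in WT replicate 3 and 17.9% in KO replicate 3. Hoxb minus Hoxc averaged -33.1 ± 25.7 percentage points and was below 0 in 5 of 6 libraries (exact sign-flip permutation test, p = 0.0625, adjusted p = 0.0938). Hoxb minus Hoxd averaged -32.2 ± 21.4 percentage points, below 0 in 6 of 6 libraries, with p = 0.031, the smallest that 6 libraries allow in this exact permutation test, and an adjusted p of 0.0938. These tests take the 6 libraries as independent. With same-numbered WT and KO libraries averaged to 3 pairs, an alternative chosen after seeing the data, the adjusted p was 1 for Hoxa and 0.375 for Hoxc and Hoxd (exact sign-flip permutation test), and no p below 0.25 was possible before adjustment. In the 4 libraries with 75 bp reads the differences from Hoxc ran from -56.3 to -44.4 points and those from Hoxd from -52.8 to -37.1 points. In the 50 bp libraries both lay between -10.9 and 1.97 points.

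**Figure D4:**
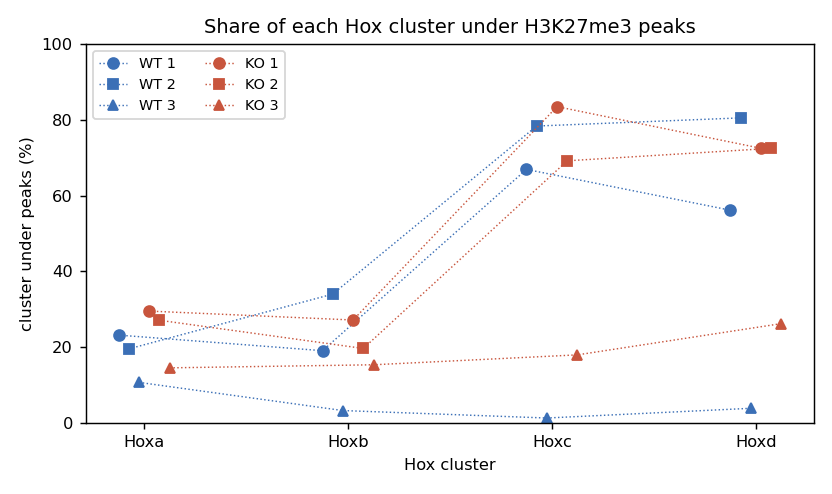
Percent of each Hox cluster under peaks, by library (colour, genotype; symbol, replicate number; dotted lines join the values of 1 library). Hoxa and Hoxb lie below 35% in all libraries, whereas Hoxc and Hoxd lie between 56.1% and 83.5% in replicates 1 and 2 and fall to 26.2% or less in replicate 3.

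By paralogue group, the numbered set of genes that occupy the same place in different clusters, Hoxb shared its unmarked middle with Hoxa in part. Promoters of groups 2 to 4 were marked in 0 of 3 genes of Hoxb, 1 of 3 of Hoxa (Hoxa2, in 3 libraries), 1 of 1 of Hoxc (Hoxc4, in 5) and 2 of 2 of Hoxd (Hoxd3 and Hoxd4, in 4 each). In groups 5 to 13, a promoter peak was seen in 6 of 6 genes of Hoxb, 4 of 7 of Hoxa, 8 of 8 of Hoxc and 6 of 6 of Hoxd. In Hoxa the genes with no call were Hoxa3, Hoxa4, Hoxa5, Hoxa6 and Hoxa7, so the unmarked stretch of Hoxa reached further towards the 5′ end than that of Hoxb. At the 3′ end, Hoxd1 was called in 6 libraries and Hoxb1 in 5. The number of libraries with a call is a count of peaks and not of expression.

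Outside the cluster, the mark of Hoxb13 was part of a wider block. Peaks no more than 5 kb apart joined to a block over Hoxb13 of 39.0, 65.3 and 1.53 kb in the WT libraries and 48.4, 43.2 and 18.2 kb in the KO libraries. Its highest coverage was not at Hoxb13 but 15.99 to 16.6 kb upstream, within the lincRNA gene Gm11535 (named after its values were seen), in 4 libraries, with 12 fragments for WT replicate 1 and 15 each for WT replicate 2 and KO replicates 1 and 2. In KO replicate 3 the peak in Gm11535 reached 7 fragments and lay outside the block, whose highest coverage, 14 fragments, was in the promoter window of Hoxb13. In WT replicate 3 the block was the peak inside Hoxb13 alone, and a separate peak 22.4 kb upstream had a maximum of 7. Ttll6, the nearest protein-coding gene on that side and an enzyme gene of tubulin modification, had a peak in its body in 2 WT and 3 KO libraries, and Calcoco2 and Atp5g1 beyond it had none. On the Hoxb1 side the next peak was 35.4 to 36.7 kb past the end of Hoxb1 in WT replicates 1 and 2 and KO replicate 1, 95.1 kb in KO replicate 2 and over 649 kb in both replicate 3 libraries. Skap1, an adaptor of T cell receptor signalling, had promoter peaks in 1 WT and 2 KO libraries, whereas Snx11 and Cbx1 had none.

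The sequence of the marked and unmarked parts was compared as a description. The unmarked stretch from Hoxb5 to Hoxb2 (96302826 to 96362764) held 22.5 CpG per kb, close to the 24.0 CpG per kb of bases under a peak in at least 1 library and above the 9.80 of chromosome 11. CpG content rose with the number of libraries, from 21.1 per kb at bases under a peak in 1 to 3 libraries to 31.4 in at least 4 and 35.4 in at least 5, whereas the 1.53 kb under a peak in all 6 held 22.3. The other unmarked bases of the cluster, mainly between Hoxb13 and Hoxb9, held 12.6 CpG per kb. Repeat-masked sequence made up 19.4% of the stretch from Hoxb5 to Hoxb2, 16.7% of the bases under a peak and 47.5% of the other unmarked bases. The unmarked stretch from Hoxb5 to Hoxb2 thus held nearly as many CpG per kb as bases under a peak in any library, and fewer than those under a peak in at least 4.

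**Figure D5:**
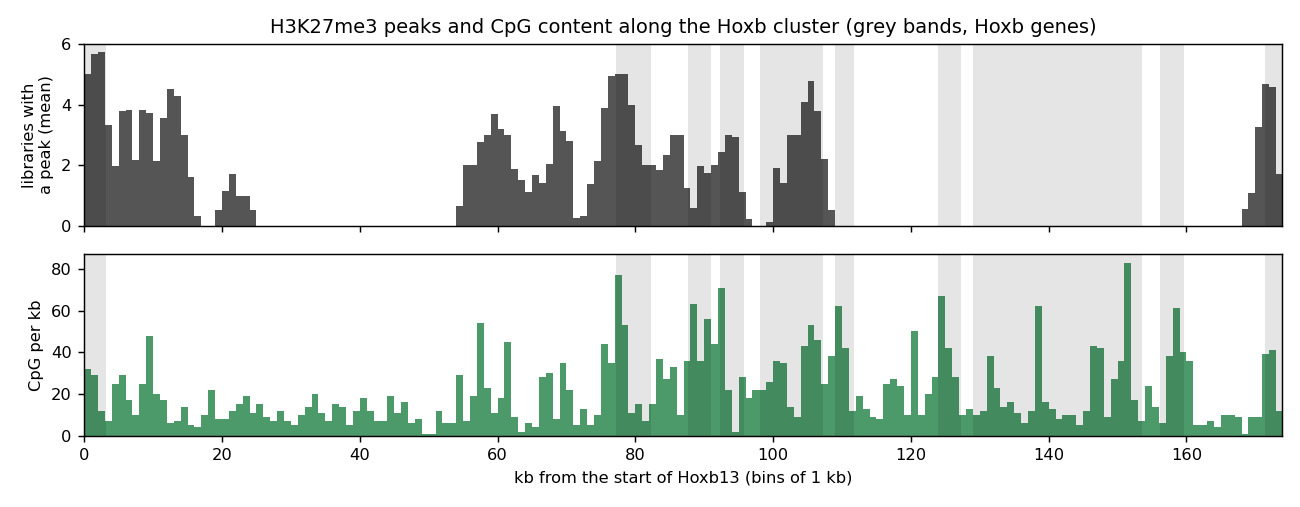
Mean number of libraries with a peak (top, 0 to 6) and CpG per kb (bottom) in bins of 1 kb from the start of Hoxb13; grey bands are the 10 Hoxb genes. CpG-rich bins occur both under peaks and in the stretch with none, which holds 22.5 CpG per kb on average.

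Retinoic acid is a known inducer of 3′ Hox genes through receptors that bind direct repeats of a short motif. Such repeats of AGGTCA or AGTTCA or GGGTCA or GGTTCA with a spacer of 2 bases (DR2) or 5 bases (DR5) were searched on both strands. There were 3 matches in the cluster, and 0 of them was under a peak in any library. They are shown with the spacer in lower case because 2 of them fall in the unmarked stretch.
DR5 between Hoxb13 and Hoxb9, chr11:96212029-96212045, minus strand: AGGTCAgggaaGGGTCA
DR5 in an intron of Hoxb3 and of Gm11536, chr11:96341236-96341252, plus strand: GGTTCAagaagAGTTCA
DR2 upstream of Hoxb1, chr11:96359136-96359149, plus strand: AGGTCAtgAGTTCA
Of 1980 windows of the same length as the unmarked stretch along chromosome 11, 49.7% held at least 1 DR2 match and 20.2% at least 1 DR5 match. A match describes letters and not a bound site.

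Genes that act with or upstream of Hoxb were examined as lists. Among Hox cofactors, which bind DNA together with Hox proteins, 3 of 9 had a promoter peak: Pknox2 in 6 libraries and Meis2 and Meis3 in 5 each. Meis1, Pknox1 and all 4 Pbx genes had none. Among upstream regulators 6 of 11 had one: Cdx1 and Cdx2, caudal homeobox activators of Hox genes, in 6 libraries each, Cdx4 in 3, and the retinoic acid receptor genes Rarg in 5, Rxrg in 4 and Rara in 1 (KO). Kmt2a and Men1, which maintain Hox expression, had none. Of 10 genes of Polycomb repressive complex 2, 0 had a promoter peak. Against the 15.8% of all protein-coding genes given above, the first 2 lists thus had larger shares of marked promoters, with no test made.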

How the data were processed

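CUT&Tag peaks of H3K27me3 from 6 of the 10 samples were used (3 WT, 3 KO, grouped by title), and the 4 IκBα samples were not analysed here. The authors trimmed reads (Trim Galore 0.6.6), aligned them to GRCm38 (Bowtie2 2.4.4), removed duplicates and reads that were multi-mapped or below a mapping quality of 20, and called peaks per library with SEACR 1.3 (stringent, top 0.5%, no control). The file names mark the lists as filtered against a blacklist, whose regions are not given in the sources used here. The deposited columns give total signal (summed fragment coverage of a peak) and maximum signal (highest coverage), neither scaled to depth. Gene models were GENCODE M21, promoters and microRNAs RefSeq. Whether a peak list was pooled does not arise, since peaks were called per library. Libraries were compared by exact permutation tests, and regions called in all 6 by limma 3.58.1 (R 4.3.3) on log2 total signal centred on each library's median, with Benjamini-Hochberg adjustment, a step tested on simulated data. Python 3.11.15 was used.

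Members were named by place in the cluster, other genes by their place (inside the cluster or the 3 nearest coding genes per side) or from lists of cofactors, regulators and cell type markers. Members and lists were chosen with earlier results of these data known. Same-numbered WT and KO libraries deviated together over the 718 shared regions (r of 0.28, 0.31 and 0.48 across regions, which are not independent). Libraries of different number gave r from -0.44 to 0.27, the highest for WT replicate 2 with KO replicate 1, so that numbers 1 and 2, of the same read length, were hardly told apart. Replicate numbers were taken as pairs in an alternative. Other alternatives changed the peak set, promoter window, cluster bounds, scaling and libraries.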

Additional observations from a re-analysis of the deposited data

How the results depend on the processing

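The peak lists hold the strongest blocks of each library, so a gene without a peak is below that library's threshold and not shown to lack the mark, and 3 libraries per genotype limit each comparison. No comparison of WT with KO reached an adjusted or exact p under 0.05 under any alternative. For the exact tests this was fixed in advance, as 3 libraries against 3 allow no p below 0.1 and 3 pairs none below 0.25. Leaving libraries out does not lower these limits. Of 175 alternative values, 141 kept direction, threshold side or nearly the count (Hoxb9 5 to 4). Hoxb4, Hoxb3 and Hoxb2 stayed at 0 libraries with a promoter peak in their 4 alternatives, and Hoxb13 at 5. The other members lost calls: with 1047 peaks in every library Hoxb9 fell from 5 to 2 libraries, Hoxb8 and Hoxb7 from 4 to 2, Hoxb6 from 5 to 3, Hoxb5 from 6 to 2 and Hoxb1 from 5 to 0. With peaks above the library's median signal, Hoxb8 and Hoxb7 fell to 2, Hoxb5 and Hoxb1 to 3, and the left end of the unmarked stretch lay between 2.86 and 107.9 kb. With 1047 peaks in every library, the difference in members with a promoter peak (KO minus WT) turned from 1.33 to -0.667, and Hoxb minus Hoxa (-6.64 points) and Hoxb minus Hoxd (-34.9 points) reached an adjusted p of 0.0469 by exact sign-flip permutation test over 6 libraries taken as independent. The 0.0469 holds only if the 6 libraries are independent. With the replicate block (added after seeing the data) the adjusted p of the sign-flip test was 0.375 for both. As 3 pairs allow no unadjusted p below 0.25, that value could not have passed, and dependence on the pairing is not decided. In the 75 bp libraries alone, directions turned for covered share (-3.13 points), log2 mean coverage (0.083), the left end of the unmarked stretch (-2.12 kb) and Hoxb minus Hoxa (0.140 points). With the cluster taken from Hoxb9 to Hoxb1 the left end differed by -1.14 kb and the right end by -0.578 kb. The cause of these turns was not tested, except that the last follows from leaving out the gap next to Hoxb13 that WT replicate 3 had as its longest.

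With 1 library left out at a time, the difference in covered share ranged from -5.82 (without WT replicate 3) to 9.56 points and was -1.28 points without KO replicate 1. Members with a promoter peak ranged from 0.333 to 2.33, log2 mean coverage from -0.14 to 0.050 (without KO replicate 3), the left end from -1.88 (without WT replicate 3) to 50.9 kb and the right end from 0.887 to 41.9 kb. Hoxb minus Hoxa ranged from -4.11 to 0.275 points (0.274 without WT replicate 3), Hoxb minus Hoxc from -40.1 to -28.5 and Hoxb minus Hoxd from -38.5 to -28.1. Log2 signal of the region at Hoxb13, which reaches far upstream of the gene, turned to -0.15 with scaling by summed total signal. That scaling shifted the median of all 718 regions from -0.020 to -0.26. For the region at Hoxb13 the value was -0.14 for mean signal per base and -0.058 in 75 bp libraries. With 1 library left out its log2 signal ranged from -0.25 (without WT replicate 3) to 0.29, with -0.028 without KO replicate 1. At Hoxb6 the log2 signal turned to 0.095 for mean signal per base and 0.23 in 75 bp libraries. With 1 library left out it ranged from -0.83 to 0.25 (without WT replicate 3). The count of regions called by limma was 0 in each of the 12 alternatives, and between 0 and 56 had an unadjusted p under 0.05.

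With the replicate block, in which WT and KO libraries of the same number were paired, the differences were 1.94 points in covered share (exact sign-flip permutation test, p = 1), 1.33 members (p = 0.5), -0.067 in log2 mean coverage (p = 0.75), 33.2 kb for the left end (p = 1) and 27.8 kb for the right end (p = 0.5), where 3 pairs allow no p below 0.25, and limma called 0 regions. The block changed no other call.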
